A study of Mus musculus with 12 samples.

Results

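The Wnt pathway genes described here were taken by their gene symbol: ligands (Wnt), their processing and release factors (Porcn, Wls), Frizzled, LRP, Ror and Ryk receptors, secreted inhibitors (Sfrp, Dkk, Wif1), R-spondins with their Lgr receptors, the ubiquitin ligases Znrf3 and Rnf43, the cytoplasmic relay (Dvl, Axin, Apc, Ctnnb1) and the TCF and LEF factors. The table held 53 such genes among 23378. Of these, 41 passed a filter on low counts and were tested, with 14180 genes in all. The other 12 (Dkk1, Dkk3, Lgr5, Lgr6, Rspo1, Rspo2, Sfrp4, Wnt2, Wnt2b, Wnt8b, Wnt9a and Wnt16) are given as levels. A further 13 genes of the annotation whose symbol fits, Wnt1, Wnt3, Wnt3a and Wnt10b among them, had no row and could not be analysed.

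Wnt ligands are secreted lipid-modified proteins. With a Frizzled receptor and LRP5 or LRP6 they stop the Axin and APC complex from degrading β-catenin, which then acts with TCF and LEF factors on target genes. Other ligands signal through Frizzled, Ror and Ryk without β-catenin and steer cell shape and polarity. In the kidney the pathway is best known from development, where Wnt9b from the ureteric bud and Wnt4 in the forming nephron drive epithelium formation, Wnt11 acts at the ureteric tips and Wnt7b orients the growth of the collecting duct.

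The samples were 12 RNA sequencing libraries from kidney cortex of C57BL/6 mice. All carried the same 2 alleles in both sorted populations: an inducible Cre under the neuronal nitric oxide synthase gene (nNosCreERT2), and the mTmG reporter, in which recombination swaps membrane-bound tdTomato (red) for GFP (green). The green fraction was collected as macula densa, the salt-sensing plaque that controls filtration and renin release, and cells with the strongest red signal as control cells, meant to represent distal tubule and collecting duct epithelium. There were 2 macula densa and 4 control-cell libraries from mice on control diet, and 2 and 4 from mice given low salt diet with the ACE inhibitor enalapril (150 mg/L in the water), called treated below. The treatment lasted 14 days. The labels used here give no age, and do not say whether libraries came from separate mice, so p-values measure the spread between these libraries.

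Total counts ran from 4259020 to 14856542 per library, of which nuclear protein-coding genes held 781257 to 2331481. The gene Gm42418 alone held 53.5 to 58.9% of the total in macula densa and 58.9 to 65.0% in control cells. It was kept in the library totals. Levels are CPM (counts relative to the scaled library total, the unit of edgeR), in which 3 counts amounted to 0.231 to 0.734 CPM. The 4 macula densa libraries held the marker Nos1 at 100 to 232 CPM, against 0.109 to 0.735 CPM in control cells. The labelled origin of the control cells was met in part. All 8 collecting duct principal cell markers were detected there, with sums of 104 to 900 CPM (macula densa 11.3 to 41.5), and the thick ascending limb list summed to 219 to 1660 CPM. The distal convoluted and connecting tubule list summed to 269 to 1100 CPM in control cells, against 629 to 1230 CPM in macula densa. All 8 podocyte and all 11 endothelium markers were detected in control cells too. Podocyte sums were 1410, 1120, 722 and 50.2 CPM on control diet and 142, 1140, 220 and 966 CPM in treated mice, and endothelium sums were 1740, 1410, 958 and 58.2 CPM and 398, 979, 286 and 1370 CPM. Macula densa libraries held 20.3 to 163 CPM of podocyte and 14.4 to 192 CPM of endothelium markers, with the highest of both in replicate 1 on control diet. Control-cell replicate 4 on control diet thus stood apart from its group. In sorted populations, fewer cells of a type and less RNA per cell cannot be told apart.

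The first comparison asked how Wnt genes differed between macula densa and control cells. Averaged over both diets, 7 of the 41 tested genes were higher in macula densa and 12 lower at an edgeR quasi-likelihood adjusted p under 0.05. This was 46.3% of those tested, beside 21.3% of all genes (7.48% higher and 13.9% lower). The 7 were the inhibitor Sfrp1, the ligands Wnt10a and Wnt5a, the receptors Fzd3 and Lrp6, the ligase Znrf3 and the ligand carrier Wls. The 12 were Wnt4, Wnt5b, Wnt7b and Wnt11, the inhibitors Dkk2 and Wif1, the receptors Fzd4, Lrp5 and Ror1, the factors Tcf7l1 and Tcf7l2, and Axin2. The median log2 fold change of the tested Wnt genes was -0.35, beside -0.06 for all genes, and it was the same with the 4 genes that had a group at 0 set to their bounds. With library totals alone as the scaling, which moved the median of all genes to 0.14, 9 Wnt genes were higher and 10 lower, while over all genes the split turned from 1061 higher and 1966 lower to 1827 and 1450. With a podocyte and endothelium score as a covariate, chosen after the data were seen, 4 of the 19 calls held: Sfrp1, Wnt4, Wnt7b and Fzd4. That was 9.76% of the tested Wnt genes, beside 5.84% of all genes under the same score (828 of 14180). The score, a mean log2 CPM of the markers, was -0.05 to 3.69 in macula densa. In control cells it was 4.02 to 6.66, except 2.17 in replicate 4 on control diet. It is thus confounded with the population, and a call lost with it cannot tell them apart. Fewer Wnt genes passed without macula densa replicate 2 of either diet, and no share of all genes is given for those fits.

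**Figure D1:**
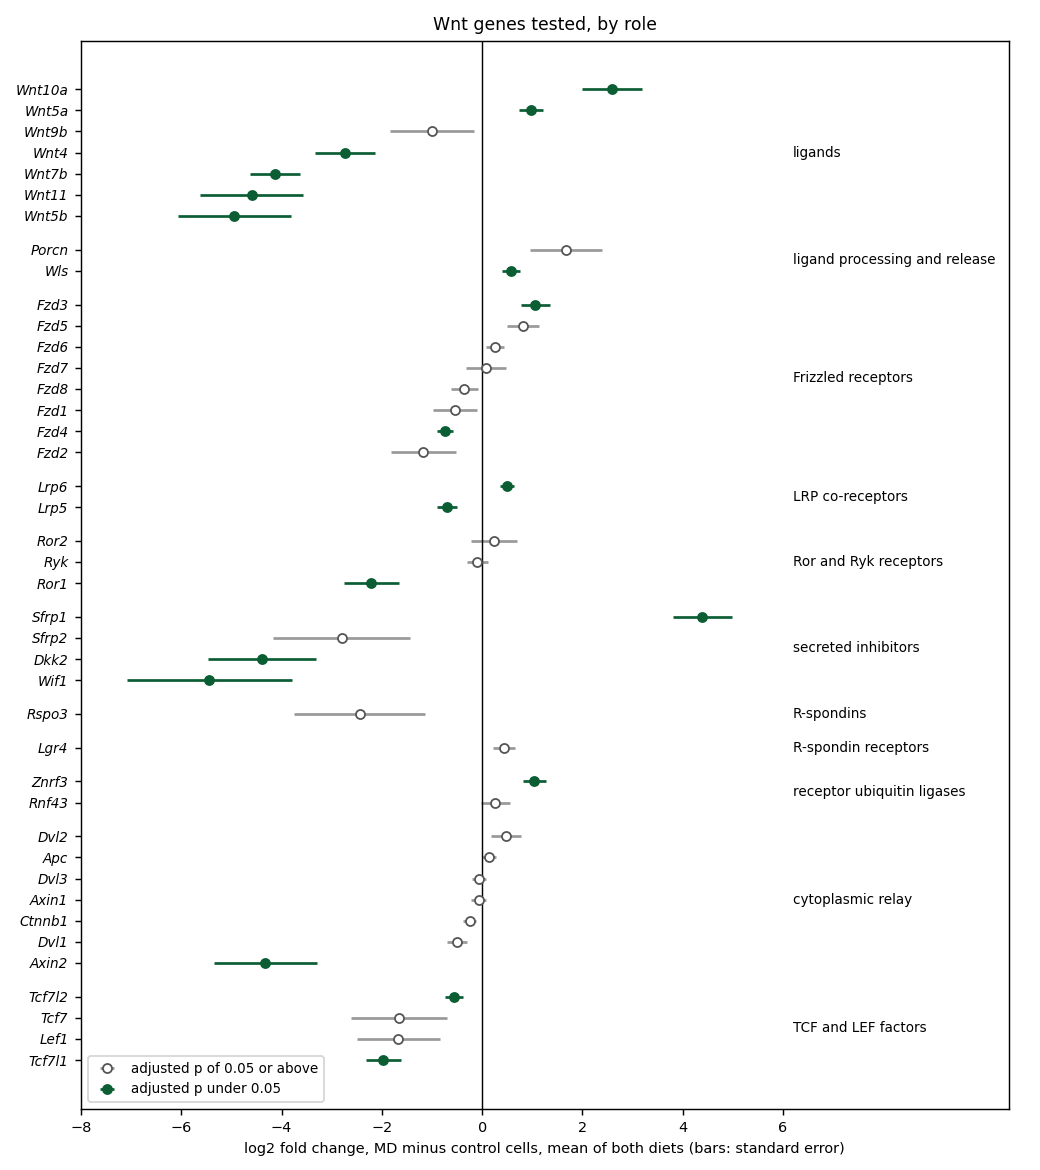
Fold changes of the 41 tested Wnt genes, by role. The x axis is the log2 fold change of macula densa minus control cells averaged over both diets, with bars of 1 standard error; filled points passed the test. Sfrp1 lies farthest to the right at 4.39 and most ligands lie to the left. There the fitted values of Wif1, Wnt5b, Axin2 and Rspo3 rest on a macula densa group with 0 counts and are not measured sizes.

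On each diet alone fewer passed. On control diet 4 Wnt genes did, 9.76% of those tested beside 6.61% of all genes (2.69% higher and 3.92% lower): Sfrp1 was higher, and Wnt7b, Wnt4 and Fzd4 were lower. In treated mice 6 did, 14.6% beside 7.27% of all genes (3.15% higher and 4.13% lower): Sfrp1 was higher, and Wnt7b, Tcf7l1, Lrp5, Axin2 and Dvl1 were lower. When libraries were scaled by their totals only, 3 Wnt genes were higher and 3 lower on control diet, and 5 higher and 2 lower in treated mice. The split of all genes turned as well, from 382 higher and 556 lower to 542 and 328 on control diet, and from 446 and 585 to 736 and 392 in treated mice. Without control-cell replicate 4 on control diet the counts were 12 and 12. Without macula densa replicate 2 of the group compared they were 0 on control diet and 1 in treated mice. On control diet the count was 1 without macula densa replicate 1 and 2 without control-cell replicate 3, and in treated mice it was 3 without treated control-cell replicate 1 or 2 and 2 without replicate 4. The comparisons share libraries with the average over both diets, so they do not support it independently. For the fits without 1 library no share of all genes is given, so a changed count is not a result about Wnt genes.

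Sfrp1, a secreted protein that binds Wnt ligands and Frizzled receptors, was the most abundant of the 53 genes per length of transcript in macula densa. Its mean level was 114.9 CPM per kilobase of exon on control diet and 121.2 in treated mice. The next gene, Ctnnb1, stood at 10.97 and 10.71. In control cells Sfrp1 ranked 5 of the 53 on either diet, at 7.57 and 4.23 CPM per kilobase. The gene lies on the plus strand of chr8:23411502-23449632 (GRCm38). Its level was 501 and 504 CPM in the macula densa libraries on control diet and 565 and 496 CPM in the treated ones. Control cells held 4.37, 12.4, 45.7 and 69.8 CPM on control diet and 9.22, 37.5, 7.98 and 19.3 CPM in treated mice. The lowest macula densa library was thus far above the highest control-cell library. The 10 thick ascending limb markers, none of them at 0 in either population, were compared as a sum only. The sum was 2490 to 4370 CPM in macula densa and 219 to 1660 CPM in control cells, the same direction as Sfrp1. Slc12a1, which is on this list and on the macula densa list, made up much of it in macula densa. Alone it stood at 1769 to 2026 CPM there and 41.8 to 430 CPM in control cells. The other markers were not compared singly. For Sfrp1 the log2 fold change averaged over diets was 4.39 ± 0.59 (SE, edgeR adjusted p = 0.000464). It was 3.92 on control diet (adjusted p = 0.0173) and 4.85 in treated mice (adjusted p = 0.00672). The averaged call held in all 23 alternatives run, with adjusted p up to 0.0307. The call in treated mice ended with the podocyte and endothelium score (3.75, adjusted p = 0.131), and the call on control diet ended without either macula densa library of that diet (adjusted p = 0.0713 and 0.11) and in a fit of only the groups compared (adjusted p = 0.0697). On control diet, the 2 control-cell libraries with the highest Sfrp1 were also those with the highest thick ascending limb sums (1050 and 1660 CPM, against 219 and 309 CPM), while in treated mice the library with the highest Sfrp1 had 516 CPM of these markers and the others 369 to 1080 CPM. The part of that tubule segment in the Sfrp1 difference was not tested.

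Of the other 6 inhibitors in the table, Dkk2 and Wif1 were lower in macula densa, Sfrp2 did not pass, and 3 were too scarce to test. Dkk2, which binds LRP5 and LRP6, stood at 15.1 and 2.44 CPM in macula densa on control diet and 0.192 and 1.64 CPM in treated mice. Control cells held 130, 145, 65.9 and 4.75 CPM on control diet and 15.2, 63.9, 7.14 and 85.0 CPM in treated mice. The lowest control-cell library lay below the highest macula densa library, so the groups overlapped. The fold change averaged over diets was -4.39 ± 1.08 on the log2 scale (SE, adjusted p = 0.0134), and it was 0.26 with the podocyte and endothelium score in the fit (adjusted p = 0.875). Per length, Dkk2 ranked first of the 53 in control cells on control diet, at 23.3 CPM per kilobase. Within control cells its 3 lowest libraries were also the 3 lowest in both podocyte and endothelium sums.

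Wif1, which sequesters Wnt ligands, gave 0 counts in both macula densa libraries on control diet and 1 count in the treated ones. Control cells held 2.84, 2.35, 2.19 and 0 CPM on control diet and 0.0769, 2.45, 0.210 and 3.26 CPM in treated mice. Wif1 was at least 6.69-fold lower in macula densa on control diet, with 3 counts per library as the floor. Averaged over diets it passed the test (adjusted p = 0.0367). The call ended in 9 of the 12 fits that left out 1 library, and its direction turned with the podocyte and endothelium score. Control-cell libraries with a Wif1 level above 2 CPM were the 5 with the highest podocyte sums.

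Sfrp2, another inhibitor of the Sfrp1 family, did not pass between the populations (adjusted p = 0.171). Its level was 8.31 and 0.733 CPM in macula densa on control diet and 0.383 and 0 CPM in treated mice. In control cells it was 26.7, 62.0, 19.8 and 0.310 CPM on control diet and 0.307, 4.41, 0.630 and 1.63 CPM in treated mice. The inhibitors Dkk1, Dkk3 and Sfrp4 were under 1.1 CPM in every library.

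**Figure D2:**
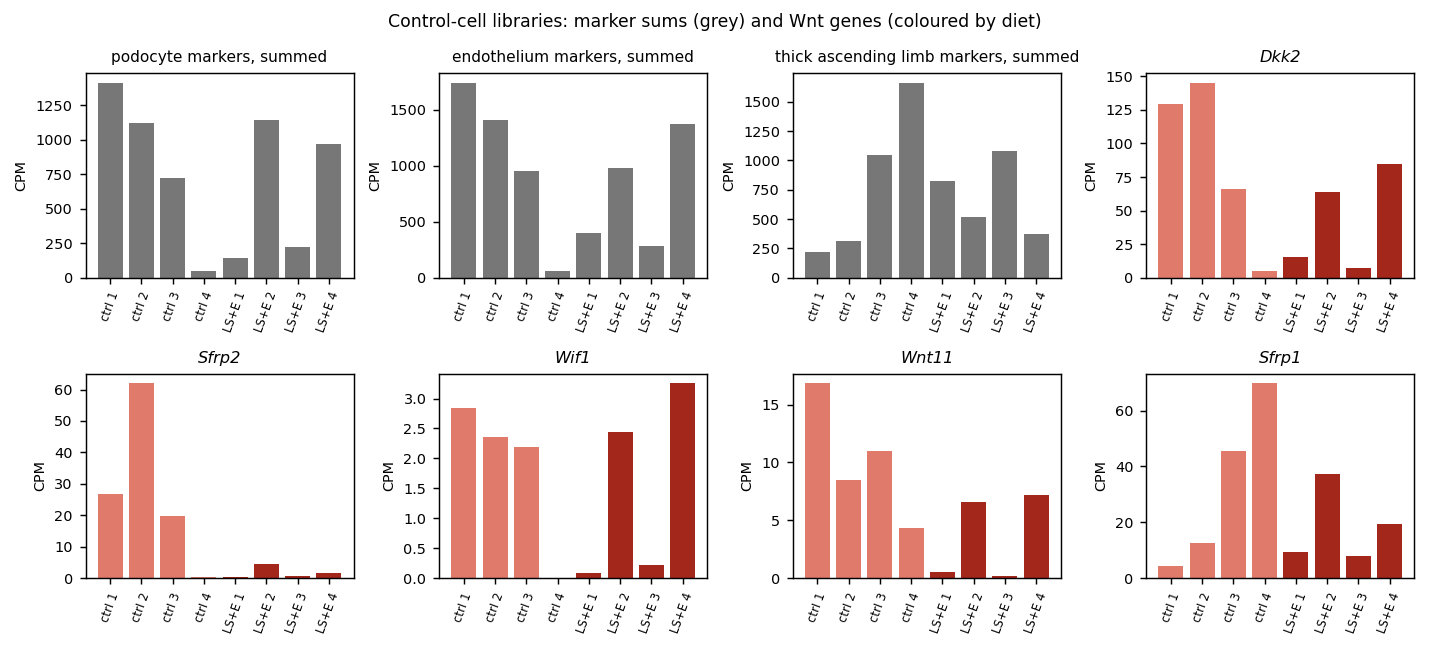
The 8 control-cell libraries, 4 per diet, in CPM. Grey bars are summed markers of podocytes, endothelium and thick ascending limb; coloured bars are single Wnt genes on control diet (light) and in treated mice (dark). Control library 4 on control diet has the lowest podocyte sum (50.2 CPM), the lowest Dkk2 (4.75 CPM) and the highest Sfrp1 (69.8 CPM).

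The table held 12 ligands, of which 7 could be tested: 2 were higher in macula densa, 4 lower, and Wnt9b did not pass. Wnt7b, a ligand of the collecting duct, was the clearest of the lower ones. It stood at 0.308 and 0.163 CPM in macula densa on control diet and 0.575 and 0.164 CPM in treated mice. Control cells held 3.28, 4.04, 8.48 and 6.72 CPM on control diet and 5.38, 6.86, 2.10 and 5.19 CPM in treated mice. All 4 macula densa libraries lay below all 8 of control cells, and the log2 fold change was -4.13 ± 0.51 (SE, adjusted p = 0.00026). This call held in all 22 alternatives run. With the podocyte and endothelium score it was -4.21 (adjusted p = 0.00161). Collecting duct principal cell sums, at 11.3 to 41.5 CPM in macula densa and 104 to 900 CPM in control cells, moved in the same direction, and their part in the difference was not tested. Wnt7b shares 324 exon bases with the antisense gene AU022754, and whether reads were counted by strand is not given in the sources used here. That gene held at most 10 counts in any library.

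Wnt4, which drives epithelium formation in the early nephron, was scarce. It gave 0 and 0.0815 CPM in macula densa on control diet and 0.383 and 0.492 CPM in treated mice. Control cells held 1.20, 0.564, 0.667 and 0.930 CPM on control diet and 1.69, 0.735, 1.89 and 1.12 CPM in treated mice. The groups did not overlap, though the highest macula densa library (0.492 CPM) held 3 counts and the lowest control-cell library (0.564 CPM) 6. The fold change averaged over diets was -2.73 ± 0.60 on the log2 scale (SE, edgeR adjusted p = 0.00814). On control diet macula densa held 1 count in all against 33, a ratio of 18.2-fold with a 95% counting interval from 3.04 to 740, and that call (adjusted p = 0.0322) ended in 6 of 12 fits that left out 1 library.

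Wnt5b, a ligand of the branch without β-catenin, gave 1 count in the 4 macula densa libraries together. Control cells held 1.31, 1.13, 0.857 and 0.207 CPM on control diet and 0.384, 1.96, 0.840 and 0.610 CPM in treated mice, 58 counts together. The summed level was 26.99-fold lower in macula densa with a 95% counting interval from 4.66 to 1084, and the fit gave an adjusted p of 0.0109.

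Wnt11, which in the developing kidney acts at the ureteric tips, stood at 0.718 and 0.489 CPM in macula densa on control diet and 0.192 and 0 CPM in treated mice. Control cells held 16.8, 8.46, 10.95 and 4.34 CPM on control diet and 0.538, 6.61, 0.210 and 7.22 CPM in treated mice. On control diet the groups were well apart, while 2 treated control-cell libraries lay within the range of macula densa. These 2 were the treated libraries with the lowest podocyte sums. Replicate 4 on control diet, with the lowest podocyte and endothelium sums of all control-cell libraries, held 4.34 CPM. The part of podocytes and endothelium in the Wnt11 difference was not tested. The fold change averaged over diets was -4.59 ± 1.03 on the log2 scale (SE, adjusted p = 0.00862), and it was -2.33 with the podocyte and endothelium score (adjusted p = 0.274).

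The other 2 ligands that passed were higher in macula densa. Wnt10a, a ligand that acts through β-catenin, stood at 2.46 and 2.44 CPM on control diet and 2.30 and 11.7 CPM in treated mice. Control cells held 0, 0.470, 0.476 and 0.310 CPM on control diet and 1.31, 0.490, 3.57 and 0.509 CPM in treated mice. On control diet the groups did not overlap, and in treated mice 1 control-cell library lay above the lower macula densa library. Its log2 fold change was 2.59 ± 0.60 (SE, adjusted p = 0.0104), and without macula densa replicate 2 of the treated group it did not pass. Wnt5a, the main ligand of Ror receptors, stood at 5.33 and 3.91 CPM in macula densa on control diet and 3.45 and 3.77 CPM in treated mice. Control cells held 2.73, 1.69, 2.0 and 2.27 CPM on control diet and 2.69, 1.96, 1.68 and 1.53 CPM in treated mice. All 4 macula densa libraries were above all 8 of control cells, with a log2 fold change of 0.97 ± 0.24 (SE, adjusted p = 0.0151), and on control diet alone it did not pass (adjusted p = 0.0716). Wnt5a shares 358 exon bases with the antisense gene Gm2670, which held 3 to 28 counts per library.

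Wnt9b, the ureteric inducer of nephrons, varied widely between libraries. It stood at 0.410 and 1.14 CPM in macula densa on control diet and 2.68 and 0 CPM in treated mice. Control cells held 1.20, 2.82, 4.86 and 5.37 CPM on control diet and 0.461, 1.22, 0 and 2.75 CPM in treated mice. On control diet the macula densa libraries lay just below those of control cells, in treated mice the ranges overlapped, and the difference averaged over diets did not pass (adjusted p = 0.434). Of the ligands left out of the test, Wnt8b gave 0 counts in all 4 macula densa libraries and 28 in control cells, which made it at least 1.09-fold lower, and Wnt16 gave 1 count against 28. Wnt9a gave 3 counts against 32, a level 4.96-fold lower with a 95% counting interval from 1.55 to 25.3. Wnt2 gave 0 against 11 and Wnt2b 1 against 12. Each of these 5 ligands was under 2 CPM in every library.

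**Figure D3:**
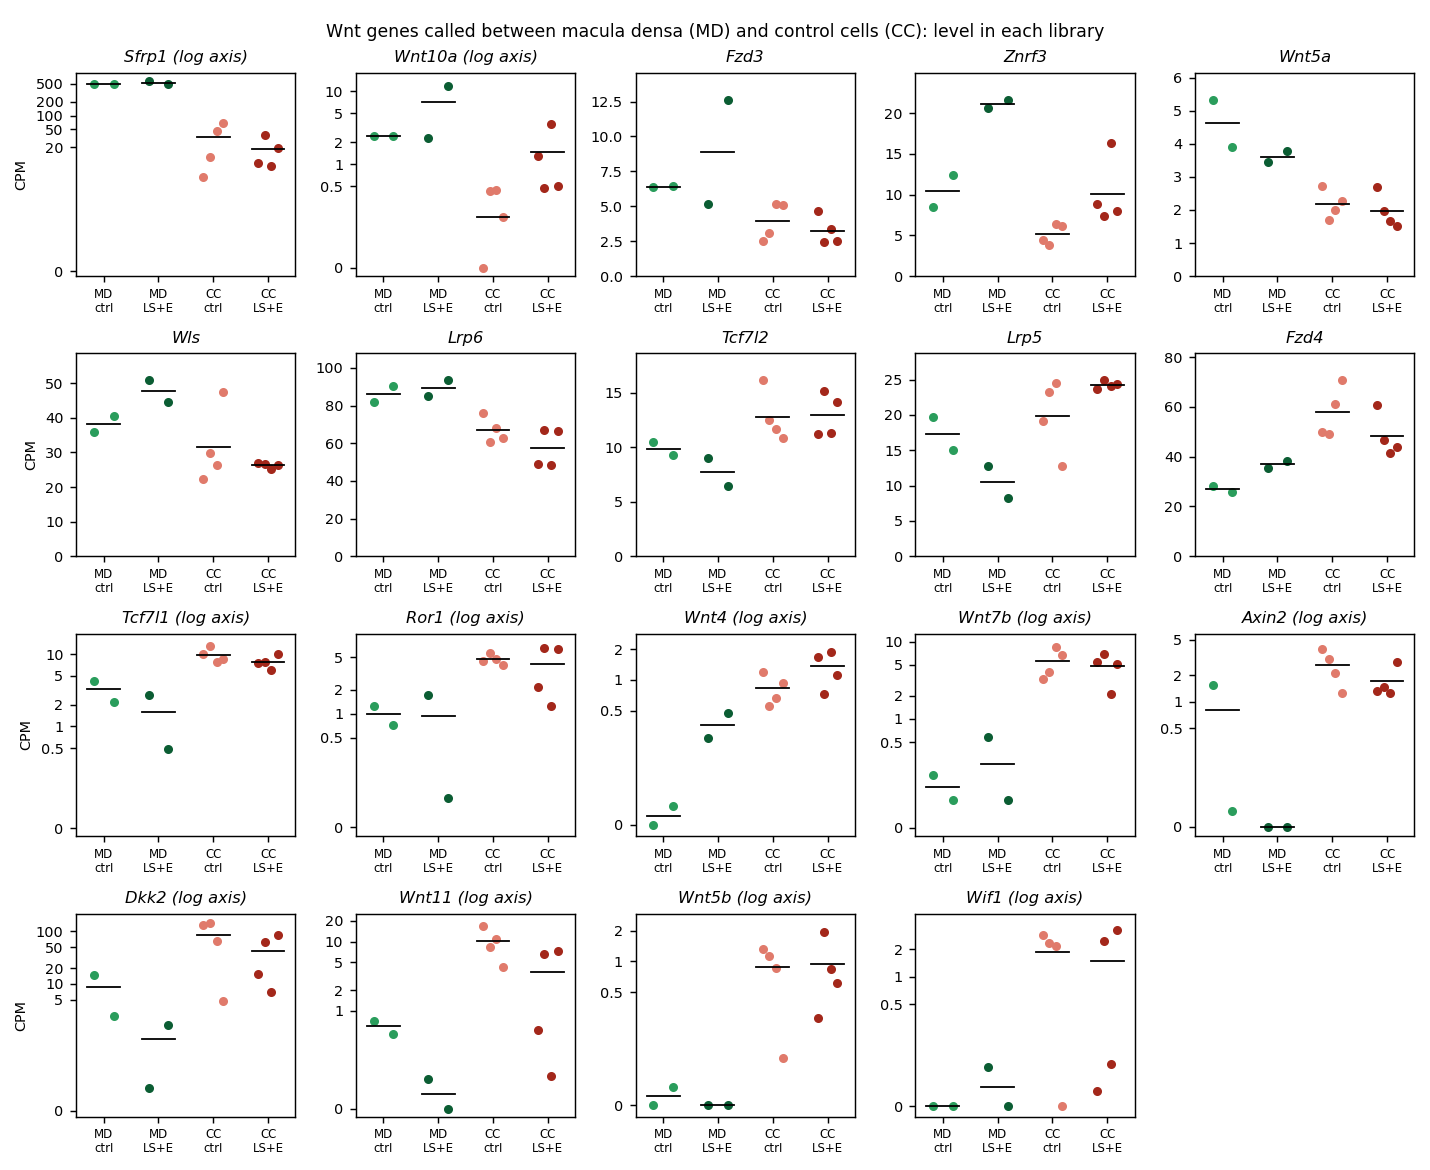
The 19 Wnt genes that passed between macula densa and control cells, in CPM for each of the 12 libraries, ordered from the most raised to the most lowered. Points are libraries and lines group means; panels marked as log are linear to 0.5 CPM and logarithmic above, the rest are linear from 0, and LS+E stands for low salt plus enalapril. Sfrp1 sits between 496 and 565 CPM in the macula densa libraries, while Wnt4, Wnt5b and Wnt7b sit below every control-cell library. For Wnt5b the treated macula densa libraries gave 0 counts. There 3 counts would be 0.575 and 0.492 CPM, above the lowest control-cell library (0.207 CPM).

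The stretch of 250 bases before the RefSeq start (GRCm38.p6) was read for 34 of the 53 genes. It was searched for CTTTGAT, a core of the TCF and LEF binding motif, on both strands. The motif lay in 1 of the 34 windows, beside 3.23% of 27025 windows of all genes. Its shorter form CTTTGA, which includes it, lay in 4 of 34 (11.8%), beside 14% of all. The one window with the full motif belonged to Wnt11. It is printed 5′ to 3′ with the motif, read on the opposite strand, in capitals. The window of Axin2, a widely read target of β-catenin, is set beside it and held neither form. Both genes were lower in macula densa. The windows are chr7:98834862-98835111 for Wnt11 and chr11:108920099-108920348 for Axin2, both on the plus strand.
Wnt11: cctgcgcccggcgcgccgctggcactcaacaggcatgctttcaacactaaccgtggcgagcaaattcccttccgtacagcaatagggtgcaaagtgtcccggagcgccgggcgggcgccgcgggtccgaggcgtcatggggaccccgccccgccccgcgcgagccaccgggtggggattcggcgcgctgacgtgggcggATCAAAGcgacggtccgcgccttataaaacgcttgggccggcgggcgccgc
Axin2: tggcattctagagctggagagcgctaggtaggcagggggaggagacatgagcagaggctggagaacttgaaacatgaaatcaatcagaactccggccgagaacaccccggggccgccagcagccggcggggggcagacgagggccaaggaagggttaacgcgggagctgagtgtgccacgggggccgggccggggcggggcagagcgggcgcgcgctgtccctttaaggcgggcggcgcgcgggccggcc
A match of letters does not show binding, and a window without a match says only that the letters are not there. The Wnt11 motif began 51 bases before the start. The Axin2 window held 24 CG pairs and 69.2% G or C, and the Wnt11 window 37 and 70.8%.

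Of the 2 release factors, Wls, which carries Wnt ligands to the cell surface, was higher in macula densa. It stood at 36.0 and 40.6 CPM on control diet and 51.0 and 44.5 CPM in treated mice. Control cells held 22.3, 29.8, 26.5 and 47.3 CPM on control diet and 26.8, 26.7, 25.2 and 26.4 CPM in treated mice. Control-cell replicate 4 on control diet was the one library of that population within the macula densa range. The log2 fold change was 0.57 ± 0.18 (SE, adjusted p = 0.0436), and the call held in 1 of the 12 fits that left out 1 library, the one without that library. Porcn, the enzyme that attaches the lipid, did not pass (adjusted p = 0.118) at 0.616 to 2.30 CPM in macula densa and 0 to 1.02 CPM in control cells.

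All 8 Frizzled receptors in the table were tested, of which 1 was higher, 1 lower and 6 did not pass. Fzd4, which also binds the ligand norrin, was the most abundant of them per length in both populations. It stood at 28.3 and 25.9 CPM in macula densa on control diet and 35.4 and 38.4 CPM in treated mice. Control cells held 49.8, 49.1, 61.3 and 70.9 CPM on control diet and 60.8, 46.5, 41.4 and 43.8 CPM in treated mice. All macula densa libraries lay below all control-cell libraries. The fold change averaged over diets was -0.74 ± 0.16 on the log2 scale (SE, adjusted p = 0.00836), and it was -1.04 with the podocyte and endothelium score (adjusted p = 0.0125).

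Fzd3, known mainly from planar cell polarity, stood at 6.36 and 6.44 CPM in macula densa on control diet and 5.17 and 12.6 CPM in treated mice. Control cells held 2.52, 3.10, 5.14 and 5.06 CPM on control diet and 4.69, 2.45, 3.36 and 2.54 CPM in treated mice. The groups did not overlap, although the lowest macula densa library (5.17 CPM) was next to the highest control-cell library (5.14 CPM). Its log2 fold change was 1.06 ± 0.29 (SE, adjusted p = 0.0218). Fzd5, with 6.13 to 10.99 CPM in macula densa and 2.73 to 9.66 CPM in control cells, did not pass (adjusted p = 0.0923). Library by library, 4 Wnt genes (Fzd3, Lrp6, Sfrp1 and Wnt5a) lay above control cells in every library, beside 4.31% of all genes tested. Another 6 (Fzd4, Tcf7l1, Tcf7l2, Wnt4, Wnt5b and Wnt7b) lay below, beside 5.28%. For Wnt4 and Wnt5b the separation rests on few counts.

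The 2 LRP co-receptors differed in opposite directions. Lrp6 stood at 81.8 and 90.5 CPM in macula densa on control diet and 85.1 and 93.7 CPM in treated mice. Control cells held 76.1, 60.6, 68.0 and 63.0 CPM on control diet and 48.8, 66.8, 48.5 and 66.3 CPM in treated mice. The groups did not overlap, with a log2 fold change of 0.50 ± 0.14 (SE, adjusted p = 0.0286). Lrp5 stood at 19.7 and 14.99 CPM in macula densa on control diet and 12.8 and 8.20 CPM in treated mice. Control cells held 19.1, 23.2, 24.6 and 12.7 CPM on control diet and 23.7, 25.0, 24.2 and 24.4 CPM in treated mice. The populations overlapped on control diet and were well apart in treated mice, where the log2 fold change was -1.21 ± 0.30 (SE, adjusted p = 0.0316). The average over diets was -0.71 ± 0.20 (adjusted p = 0.027). Scaling by library totals alone ended the averaged Lrp5 call, as did the podocyte and endothelium score for both co-receptors, at -0.13 for Lrp5 (adjusted p = 0.855) and 0.70 for Lrp6 (adjusted p = 0.109).

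Ror1, a receptor tyrosine kinase that binds Wnt5a, was lower in macula densa, where its ligand was higher. It stood at 1.23 and 0.733 CPM on control diet and 1.72 and 0.164 CPM in treated mice. Control cells held 4.48, 5.73, 4.76 and 4.03 CPM on control diet and 2.15, 6.61, 1.26 and 6.41 CPM in treated mice. One treated control-cell library (1.26 CPM) lay within the macula densa range, and the 2 treated libraries with the lowest podocyte sums had the lowest Ror1, but replicate 4 on control diet, with the lowest podocyte and endothelium sums of the 8 control-cell libraries, held 4.03 CPM. The fold change averaged over diets was -2.21 ± 0.55 on the log2 scale (SE, adjusted p = 0.0142). The related Ror2 and Ryk did not pass, at 0.308 to 1.53 CPM and 4.21 to 9.84 CPM over all libraries.

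R-spondins enhance Wnt signalling by drawing the ligases Znrf3 and Rnf43, which remove Frizzled receptors from the surface, into complexes with Lgr receptors. Znrf3, at chr11:5276324-5444847 on the minus strand (GRCm38), stood at 8.51 and 12.4 CPM in macula densa on control diet and 20.7 and 21.7 CPM in treated mice. Control cells held 4.37, 3.85, 6.38 and 6.199 CPM on control diet and 8.84, 7.35, 16.4 and 7.93 CPM in treated mice. Macula densa was above control cells on either diet, with a log2 fold change of 1.04 ± 0.23 (SE, adjusted p = 0.0088) averaged over both. It was 0.42 with the podocyte and endothelium score (adjusted p = 0.585). Rnf43 did not pass (adjusted p = 0.561), at 4.21 and 5.21 CPM in macula densa on control diet, 6.71 and 9.02 CPM in treated mice, 2.73 to 8.78 CPM in control cells on control diet and 3.36 to 6.53 CPM in treated mice. Lgr4, the one Lgr receptor that could be tested, was among the most abundant Wnt genes in macula densa at 32.3 to 41.6 CPM, and did not pass against 18.5 to 45.8 CPM in control cells. Lgr5, a stem cell marker in other epithelia, was at or under 0.383 CPM in macula densa and reached 1.42 CPM in control cells. Lgr6 was at 0 in 3 macula densa libraries and 0.958 CPM in the other one, and at most 0.735 CPM in control cells. Rspo3 was under 1.5 CPM in every library and did not pass. Rspo1 gave 2 counts in macula densa and 18 in control cells. Rspo2 gave 14 counts against 3, a summed level 10.03-fold higher in macula densa with a 95% counting interval from 2.8 to 54.4, but 12 of the 14 came from treated replicate 2.

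Of the 7 genes of the cytoplasmic relay, 1 passed. Ctnnb1, which encodes β-catenin, stood at 58.8 and 55.2 CPM in macula densa on control diet and 52.3 and 58.9 CPM in treated mice. Control cells held 79.2, 70.8, 74.9 and 65.4 CPM on control diet and 56.2, 61.0, 64.3 and 66.1 CPM in treated mice. The groups were apart on control diet and overlapped in treated mice, and the difference averaged over diets did not pass (log2 fold change -0.25 ± 0.13, SE, adjusted p = 0.181). Ctnnb1 shares 759 exon bases with Ulk4 on the opposite strand, which held at most 25 counts. Apc, Axin1 and Dvl3 had log2 fold changes between -0.07 and 0.13.

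Axin2, a feedback inhibitor and widely used readout of β-catenin activity, was the one that passed. It stood at 1.54 and 0.0815 CPM in macula densa on control diet and gave 0 counts in both treated libraries. Control cells held 3.94, 3.01, 2.10 and 1.24 CPM on control diet and 1.31, 1.47, 1.26 and 2.85 CPM in treated mice. The groups overlapped on control diet, where it did not pass (adjusted p = 0.248). In treated mice it was at least 3.23-fold lower in macula densa with 3 counts per library as the floor (adjusted p = 0.0466), and that call held in 3 of 12 fits that left out 1 library. The adjusted p averaged over diets was 0.013. Dvl1, a scaffold that passes the signal from Frizzled, was lower in treated macula densa, at 9.004 and 4.27 CPM against 14.99, 14.4, 14.5 and 12 CPM (log2 fold change -1.08 ± 0.30, SE, adjusted p = 0.047). That call held in 2 of 12 such fits.

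All 4 TCF and LEF factors had fold changes below 0 and 2 passed. Tcf7l1, mostly a repressor of Wnt targets, stood at 4.31 and 2.20 CPM in macula densa on control diet and 2.68 and 0.492 CPM in treated mice. Control cells held 9.95, 12.9, 7.90 and 8.47 CPM on control diet and 7.46, 7.84, 6.09 and 10.1 CPM in treated mice. The groups did not overlap, with a log2 fold change of -1.97 ± 0.35 (SE, adjusted p = 0.00287). The call held in 22 of 23 alternatives and missed the threshold with the podocyte and endothelium score (adjusted p = 0.0659). Tcf7l2 stood at 10.46, 9.29, 9.004 and 6.40 CPM in macula densa and 10.9 to 16.2 CPM in control cells. The highest macula densa library was just below the lowest control-cell library, and the log2 fold change was -0.56 ± 0.18 (SE, adjusted p = 0.0395), a call that held in 4 of 12 fits that left out 1 library.

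Lef1 and Tcf7, which are factors and also target genes of the pathway, were scarce and did not pass. Lef1 stood at 0.205 and 0.163 CPM in macula densa on control diet and 1.34 and 0 CPM in treated mice, and ranged from 0.210 to 2.69 CPM in control cells. Tcf7 stood at 0 and 0.163 CPM in macula densa on control diet and 0 and 1.31 CPM in treated mice, and ranged from 0.207 to 1.96 CPM in control cells. The adjusted p averaged over diets was 0.174 for Lef1 and 0.243 for Tcf7.

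Of 29 core components of the pathway outside these families, all tested, 1 was higher in macula densa and 2 were lower (10.3%, beside 21.3% of all genes): the β-catenin partner Bcl9 (log2 fold change 0.74), its relative Bcl9l (-0.52) and the kinase Csnk1g2 (-0.60). Their median was -0.15. Of 23 tested modulators, 5 were higher and 5 lower (43.5%, beside 21.3% of all genes), with a median of -0.29. The higher ones were the proteoglycans Gpc3 (1.72) and Gpc4 (0.81), the Wnt-cleaving protease Trabd2b (1.55), the LRP-binding inhibitor Sostdc1 (1.87) and Tpbg (1.40). Sostdc1 stood at 67.9 and 84.6 CPM in macula densa on control diet and 78.9 and 80.9 CPM in treated mice, against 7.98 to 50.6 CPM in control cells. The lower ones were Frzb, Shisa3 (-4.996), Adgra2 (-3.86), Nkd1 (-3.03) and the Dkk receptor Kremen1 (-1.32). Frzb gave 0 counts in treated macula densa, where it was at least 4.57-fold lower. Of 21 tested planar cell polarity genes 5 passed (23.8%, close to the 21.3% of all genes): Ptk7 (1.4996), Celsr1 (1.32) and Fuz (1.17) were higher, and Daam2 (-4.00) and Prickle2 (-3.03) lower. Their median was -0.01. Within control cells, Shisa3, Adgra2 and Prickle2 were lowest in replicate 4 on control diet, the library with the lowest podocyte and endothelium sums. With the podocyte and endothelium score, which is confounded with the population, these 3 did not pass (edgeR adjusted p = 0.853, 0.215 and 0.968). The part of these cell types in the differences was not tested. Under that score 3 of the 10 modulator calls held (Gpc3, Trabd2b and Frzb), 2 of the 5 polarity calls (Ptk7 and Daam2) and 0 of the 3 core calls. Shisa3 moved to -0.27, Nkd1 to -0.78, Kremen1 to -0.36, Prickle2 to -0.06, Celsr1 to 0.28 and Sostdc1 to 0.49. Gpc3, Trabd2b and Ptk7 were called in all 23 alternatives, but Csnk1g2 in 13, and Gpc4 and Bcl9l in 10 each.

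Among genes often read as Wnt targets, 17 of 23 could be tested, of which 7 passed (41.2%, beside 21.3% of all genes). Znrf3 was higher in macula densa, and Axin2, Nkd1, Ccnd1, Ccnd2, Myc and Jun were lower, with a median of -1.67, beside -0.06 for all genes. It stayed at -1.67 with the 2 genes that had a group at 0 set to their bounds. Ccnd1, which encodes cyclin D1, stood at 11.2 and 8.80 CPM in macula densa on control diet and 1.53 and 4.27 CPM in treated mice. Control cells held 52.3, 42.3, 45.3 and 52.1 CPM on control diet and 15.1, 28.4, 6.30 and 47.7 CPM in treated mice. One treated control-cell library lay within the macula densa range, and the fold change averaged over diets was -2.66 ± 0.47 on the log2 scale (SE, adjusted p = 0.0028). With the podocyte and endothelium score, Ccnd1 (-2.14, edgeR adjusted p = 0.047) and Myc (-3.12, adjusted p = 0.0405) were called, and the other 5 were not. Over 23 alternatives Ccnd1 was called in all and Jun in 11. Within control cells on control diet, Ccnd2 stood at 23.95, 23.1, 18.6 and 3.62 CPM and Nkd1 at 4.81, 5.83, 4.0 and 1.14 CPM, lowest in replicate 4, as the podocyte and endothelium sums were. Axin2 and Znrf3 belong to this list and to the families above, and several of its genes respond to other signals as well.

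The second question was whether Wnt genes changed with low salt and enalapril. None of the 41 did at an edgeR adjusted p under 0.05, in macula densa (6 at an unadjusted p under 0.05) or in control cells (3). Of all genes 0% passed in macula densa, with 11.2% at an unadjusted p under 0.05. In control cells 0.00705% passed, with 6.45% at an unadjusted p. The difference between the 2 diet responses passed for none either (5 at an unadjusted p), beside 0% of all genes (7.03%). DESeq2 and limma also called 0 of the Wnt genes in these comparisons. The 4 Wnt genes with the smallest p in macula densa were Fzd6, Wnt4, Axin2 and Dvl1.

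Fzd6, a polarity receptor, stood at 7.49 and 7.17 CPM in macula densa on control diet and 14.4 and 11.2 CPM in treated mice. Control cells held 7.44, 7.80, 8.95 and 11.6 CPM on control diet and 7.76, 5.63, 7.98 and 7.83 CPM in treated mice. The macula densa groups did not overlap (log2 fold change 0.80 ± 0.29, SE, edgeR adjusted p = 0.355), and the difference of responses had an adjusted p of 0.633. Axin2 gave 0 counts in treated macula densa against 16 on control diet, at least 1.52-fold lower (adjusted p = 0.361). Wnt4 gave 5 counts against 1, a ratio of 9.73-fold with a 95% counting interval from 1.09 to 460 (adjusted p = 0.361). Dvl1 stood at 10.3 and 13.9 CPM on control diet and 9.004 and 4.27 CPM in treated macula densa (adjusted p = 0.364). Lrp5, described above, had a difference of responses of -1.01 ± 0.39 (SE, adjusted p = 0.684).

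Znrf3 had treated libraries above control diet libraries in both populations. The log2 fold change was 1.02 ± 0.39 in macula densa (SE, adjusted p = 0.371) and 0.95 ± 0.29 in control cells (SE, adjusted p = 0.556). The difference of the 2 responses was 0.07 ± 0.49. In all, 11 Wnt genes had both treated macula densa libraries above both on control diet and 9 had them below, beside 18.8% and 21.8% of all genes. In control cells 2 (Znrf3 and Wnt10a) had all 4 treated libraries above, beside 2.1% of all genes, and 0 had them below (2.09%).

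In control cells the smallest p belonged to Sfrp2, whose 3 highest libraries were all on control diet, and the fitted log2 difference was -4.15 ± 1.20 (SE, edgeR adjusted p = 0.508). These 3 libraries had podocyte sums of 722 to 1410 CPM, and the treated libraries with 966 and 1140 CPM held 1.63 and 4.41 CPM of Sfrp2. With the podocyte and endothelium score, chosen after the data were seen, the log2 difference was -3.24 (edgeR adjusted p = 0.0251). Sfrp2 was not called in the main fit or in 22 of 23 alternatives. The share of all genes under the score is not given for this comparison. The part of podocytes in the Sfrp2 difference was not tested. Wnt10a had a log2 fold change of 2.09 ± 0.84 (SE, adjusted p = 0.704) and Rspo3, at 0 to 0.470 CPM on control diet and 0.305 to 1.46 CPM in treated mice, one of 2.24 ± 1.11 (SE, adjusted p = 0.84).

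**Figure D4:**
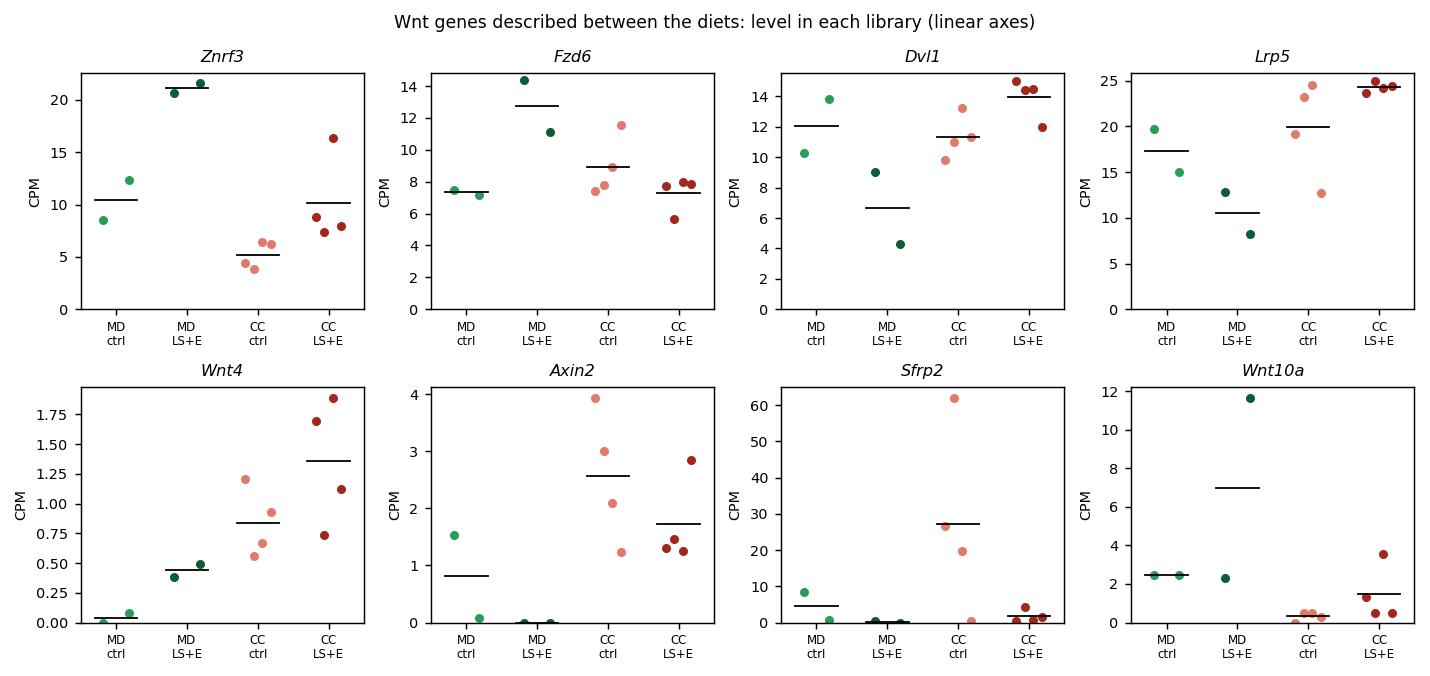
Wnt genes described between the diets, in CPM for each of the 12 libraries on linear axes. Points are libraries and lines group means, for macula densa (MD) and control cells (CC) on control diet (ctrl) and low salt plus enalapril (LS+E). Treated Znrf3 libraries lie above the control diet ones in both populations (macula densa 20.7 and 21.7 CPM against 8.51 and 12.4 CPM), while Sfrp2 is above 10 CPM in 3 libraries only, all of control cells on control diet.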

How the data were processed

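The values are expected counts per gene that the authors deposited in 1 table (16.1% of values were not whole); the submitters' processing notes name STAR 2.61, Partek and mm10, with no role. Whether reads were counted by strand is not given in the sources used here. Rows sum to at least 10 counts. Coordinates and exon lengths are from GENCODE M21 (GRCm38). Counts were rounded, filtered with filterByExpr of edgeR 4.0.16 (R 4.3.3; count minimum 10, total minimum 15), scaled with TMM, and fitted over all 12 libraries with 1 coefficient per group by edgeR's quasi-likelihood test, with Benjamini-Hochberg adjustment over 14180 genes and a threshold of 0.05. Log2 CPM used a prior count of 2. The fit was tested on simulated data. Floors take 3 counts per library, and intervals are exact binomial (95%); both cover counting error only.

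Members, gene lists and alternatives were chosen with earlier results of these data known. Genes shown in full were those past the threshold, those with the smallest p (up to 4) where none passed, and a list of Wnt targets and kidney ligands. From the other lists, up to 6 per direction with the largest change past the threshold are named. Any other Wnt gene could be named by its level. Alternatives were DESeq2 1.42.0 size factors and Wald test, limma 3.58.1 voom with sample weights, library totals, other filters, no mitochondrial or ribosomal RNA genes, only the groups compared, replicate blocks, a threshold of 0.01 and leaving out each library. The marker score as a covariate and the diet effect averaged over both populations were added after the values were seen.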

Additional observations from a re-analysis of the deposited data

Results flagged for a closer look

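In 5 of 82 sets of 4 control-cell libraries, 1 library stood apart from the others, where chance alone gives about 1 in 20 sets, or 4.1. On control diet, replicate 4 was high in Fzd5, at 2.817 log2 CPM (other libraries 1.562 to 1.718), and low in Wif1, at -2.129 log2 CPM against 1.274 to 1.619. Among treated control cells, Lgr4 was high in replicate 3 at 5.524 log2 CPM against 4.468 to 4.587. Fzd6 was low in replicate 2 at 2.551 log2 CPM against 2.998 to 3.037, and Dvl1 was low in replicate 4 at 3.613 log2 CPM against 3.875 to 3.927.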

How the results depend on the processing

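With a filter at a mean of 5 CPM, scarce genes such as Wnt4 and Wnt7b were not tested and so were not counted. The counts below are of Wnt genes alone, without the share of all genes in each alternative. A changed count is thus not a result about Wnt genes. Averaged over both diets, 19 Wnt genes differed between the populations. The count was 9 with a filter at a mean of 5 CPM, 4 with the podocyte and endothelium score, 7 at an adjusted p of 0.01, and 7 to 21 when 1 library was left out (7 without treated macula densa replicate 2, 9 without macula densa replicate 2 on control diet). On control diet, the 4 became 2 at 5 CPM, 10 with the DESeq2 Wald test, 7 with limma voom, 1 at an adjusted p of 0.01, and 0 to 12 with 1 library left out. In treated mice, the 6 became 14 with the Wald test, 1 with the score, 1 at an adjusted p of 0.01, and 1 to 12 with 1 library left out. Between the diets within each population, and for the difference of the responses, the count was 0 in every alternative, except 1 with the score in control cells (Sfrp2). With the score, Dkk2 was 0.26 and Wif1 1.85 on the log2 scale, against fitted values below 0 without it; the cause was not tested. Sfrp1 and Wnt7b were the 2 genes called in every alternative that tested them, at a threshold of 0.05 for the average over diets. Over 41 gene results and 967 alternative values, 792 kept direction and call, 172 lost the call, 1 gained it and 2 reversed. The 41 include results of the diet comparisons that the main fit did not call, which had no call to lose.

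Numbers in the sample descriptions and titles are shared between populations. Deviations of libraries with the same description number correlated at 0.227, -0.0183, 0.0753 and -0.0371. With 2 macula densa libraries per group their deviations mirror each other, so this check cannot decide whether the numbers pair libraries. The consensus correlation of libraries with a shared description number was 0.165, and the main fit used no pairing. With the description number as a replicate block (fixed term), the counts were 11 on control diet and 17 in treated mice. With the title number as the block they were 9 averaged over diets, 2 on control diet and 2 in treated mice. These are counts of Wnt genes, with no share of all genes given beside them, so a changed count is not a result about Wnt genes. The lone library left where a macula densa library was omitted is assumed to vary like the others. Genes with few counts are limited by depth: 3 counts were 0.231 to 0.734 CPM.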

Other observations

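Averaged over both populations, a comparison added after the values were seen, no Wnt gene passed between the diets (6 of 41 at an unadjusted p under 0.05, beside 12.6% of all genes, of which 0.00705% passed the adjusted threshold). Znrf3 had the smallest p among the Wnt genes, with a log2 fold change of 0.98 ± 0.24 (SE, edgeR adjusted p = 0.153), and treated libraries were above control diet libraries in both populations. Its adjusted p was 0.0194 to 0.449 over 22 alternatives, of which 1, the DESeq2 Wald test, passed. Sfrp2 came next, with a log2 fold change of -4.34 ± 1.29 (SE, edgeR adjusted p = 0.223) and an adjusted p of 0.0355 to 0.838 over 22 alternatives, of which 1 passed.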
